A study of Nothobranchius furzeri with 12 samples.

Results

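Old killifish kept on intermittent fasting (W20 IF) were compared with young adult killifish fed ad libitum (W10) by RNA sequencing of the intestine, which the labels call whole intestine and the study's methods small intestine. The comparison used 7 of the 12 libraries of the series, W20 IF replicates 1 to 3 and W10 replicates 1 to 4, each taken by its age and diet label. W20 IF replicate 4 held only 1512262 counts, so it was left out of the comparison and of the gene classes, is shown as a check, and was added only in alternatives named as such. The study's methods say that a fasted sample did not pass quality control, without naming it. They count 4 fasted fish after this loss, as many as the fasted libraries of the series. For W10 and W20 AL they count more fish than the 4 libraries held here for each. Whether W20 IF replicate 4 was the failed sample or one that the authors kept is not given in the sources used here. The remaining 4 libraries came from fish of 20 weeks fed ad libitum (W20 AL), whose values are given beside the comparison. All fish were male Nothobranchius furzeri of the short-lived strain GRZ, without a transgene or mutation in the labels, and were housed singly from the onset of sexual maturation. W10 fish received excess food on every day and were killed at 10 weeks. W20 IF fish were fed in the same way until 10 weeks, then only on alternate days until they were killed at 20 weeks, and W20 AL fish were fed daily until 20 weeks. Whether W20 IF fish were killed on a feeding or a fasting day is not given in the sources used here. W20 IF and W10 therefore differ in age and in diet together, and the share of each in a difference cannot be told apart in this comparison.

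The fish intestine digests and absorbs food through an epithelium of absorptive enterocytes, mucus-secreting goblet cells and hormone-secreting enteroendocrine cells, which is renewed from dividing cells at the base of its folds. It also houses many immune cells and is wrapped in smooth muscle and nerves. In vertebrates, fasting is known to shift intestinal expression from nutrient uptake and cell division towards the use of stored fat, whereas ageing is accompanied by slower renewal and more inflammation. The gene identifiers could not be paired with gene names here, so genes are described by their levels and by the fish in which they moved, and cell type markers were not analysed here. In whole tissue, a change in the number of cells of a type and a change in RNA per cell cannot be told apart.

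The 7 libraries held 24249659 to 26986542 counts (median 25710351), and 22178 to 22701 genes had at least 1 count in a library. A count of 0 allowed at most 0.106 to 0.124 counts per 1000000 counts (CPM), against 2.16 CPM in W20 IF replicate 4, in which 17059 genes were detected. Distances between libraries on the log2 CPM scale were 51.1 to 72.2 (median 63.4) within W10, 57.2 to 67.8 (median 62.8) within W20 IF and 72.9 to 94.97 (median 85.4) between the groups. The least similar libraries within a group were thus slightly closer to each other than the most similar libraries of different groups. W10 replicate 1 lay farthest from the rest of its group, at 60.2, and the other 6 libraries lay at 42.2 to 58.8.

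Expression was higher in W20 IF for most of the differentially expressed genes (DEGs). Of 17965 genes tested, 273 (1.52%) passed both limits, an adjusted p-value under 0.05 and a log2fold change above 1 in either direction (edgeR's quasi-likelihood test, Benjamini-Hochberg). Of these, 236 genes (1.31% of those tested) rose and 37 (0.206%) fell, so that 86.4% of the DEGs were higher in W20 IF. Without the limit on the fold change 331 genes (1.84%) were higher and 211 (1.17%) were lower, and 3128 genes (17.4%) had an unadjusted p-value under 0.05. The p-values measure the spread between these fish, with 1 library per fish. Without W10 replicate 2 the number of DEGs was 167, and leaving out any other library gave 193 to 297.

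The median rise was larger than the median fall, and the size of the rises followed the W10 level. The median log2fold change was 2.44 over the 236 rises, with a median standard error (SE) of 0.37, and it was 2.43 when the 8 genes without a count in any W10 library were set to the bound given by 3 counts per library. The middle part of the rises, between the quartiles, lay between 1.60 and 3.78, and 86 genes rose by more than 3 on the log2 scale. The 37 falls had a median of -1.24 (median SE 0.24), with quartiles at -1.58 and -1.08. The median was 4.88 for rises with a W10 mean under 0.1 CPM and 2.35 at 0.1 to 1 CPM. It was 1.47 at 1 to 10 CPM and 1.19 at 10 CPM or above, where the rises were thus no larger than the falls at the median. A W10 mean under 1 CPM was found for 170 of the 236 rises and 3 of the 37 falls. Over all genes tested the median was 0.00.

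The rises were spread unevenly over the levels of expression. Of 2835 genes with a mean under 1 CPM over the 7 libraries, 103 (3.63%) rose, compared with 3 (0.172%) of 1748 genes at 64 CPM or above. The share was 2.13% at 1 to 4 CPM, 0.61% at 4 to 16 CPM and 0.272% at 16 to 64 CPM. Genes with at most 3 counts in every W10 library passed the filter on low counts only through W20 IF and raise the share in the low classes. Without them 69 of 2800 genes (2.46%) under 1 CPM rose, and 80 of 4083 (1.96%) at 1 to 4 CPM. Genes above 3 counts but under the filter's minimum of about 10 counts in W10 also passed only through W20 IF. These shares therefore still include rises that the filter favoured. The falls numbered 7, 12, 11, 6 and 1 in the same classes, from the lowest to the highest level. Among the 7655 genes with a W10 mean of 10 CPM or above, 10 rose and 10 fell. Of the 58 tested genes with a W10 mean under 0.1 CPM, which could pass the filter only with W20 IF, 56 rose. By the W10 mean alone, 170 of the 236 rises and 3 of the 37 falls were under 1 CPM, and the plot of mean levels shows these rises to the left.

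**Figure D1:**
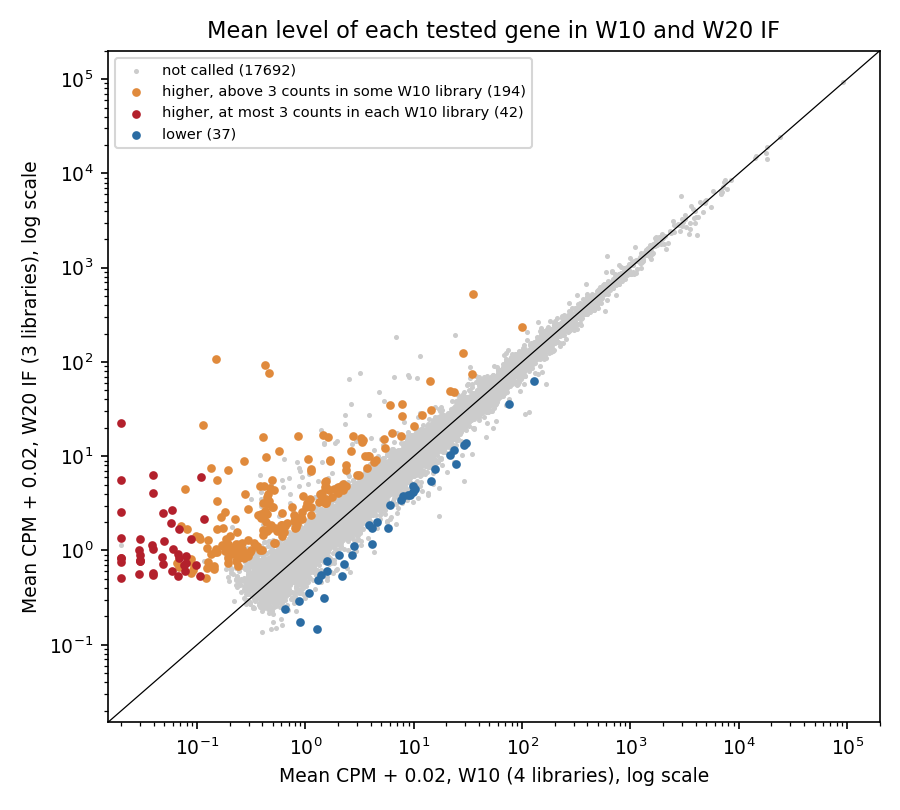
Mean CPM in W10 (x axis, 4 libraries) against mean CPM in W20 IF replicates 1 to 3 (y axis), both with 0.02 added and on log scales. Each point is 1 tested gene, and the colours mark the gene classes named in the legend. Of the 236 rises, 170 have a W10 mean under 1 CPM, where 2985 genes were tested.

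A set of 42 rising genes was close to absent from the W10 intestine, with at most 3 counts in every W10 library. Their summed level in W10 was 1.58, 0.957, 1.20 and 1.40 CPM, and in W20 IF replicates 1 to 3 it was 80.7, 98.5 and 69.5 CPM. The groups did not overlap, and the means were 1.28 ± 0.268 CPM (SD, n = 4) and 82.9 ± 14.6 CPM (SD, n = 3). The gene with the largest share gave 21.7 to 29.7% of the sum in these fish. The median log2fold change was 5.45, or 4.55 with genes without counts in W10 at their bound. Such genes passed the filter only when all 3 fasted fish had enough counts, so that they had to differ, and 42 of the 43 tested genes of this kind were called. Their number, sums and medians are a description and no support for a difference. The reverse was not found among tested genes, as 0 genes had at most 3 counts in each of W20 IF replicates 1 to 3.

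The same 42 genes were at intermediate and uneven levels in W20 AL. Their sums were 5.51, 12.1, 3.54 and 28.1 CPM in W20 AL replicates 1 to 4, and 13, 23, 7 and 35 of the genes had more than 3 counts. W20 AL replicate 4 was the highest of its group for 31 of the 42 genes, and for 23.6% of all genes tested. In W20 IF replicate 4 the sum was 3.61 CPM and 0 genes had more than 3 counts. This library held 5 counts (95% exact Poisson interval 1.62 to 11.7, counting error only) where its depth would give 114.9 at the mean of W20 IF replicates 1 to 3 and 1.78 at the W10 mean. The genes were chosen through the other 3 fasted fish, and the interval does not cover the spread between fish.

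ENSNFUG00015006725 had the largest rise among the DEGs raised in all 3 fish. It had 0 counts in each of the 4 W10 libraries and was at 22.7, 29.3 and 15.1 CPM in W20 IF replicates 1 to 3, from 612, 756 and 372 counts. Every fasted fish of the test was thus high, and every W10 fish was at 0. The mean of 22.3 ± 7.10 CPM (SD, n = 3) was at least 194-fold higher than the 0.115 CPM that 3 counts per library would give in W10. The fitted log2fold change of 12.19 (SE 0.63, adjusted p = 0.0025, edgeR's quasi-likelihood test) depends on the prior count and is no bound. The gene passed the filter only through W20 IF and was picked for its rise, so its p-values are no support for a difference. In W20 AL the gene was at 0.536, 0.598, 0.298 and 6.63 CPM, and in W20 IF replicate 4 it had 0 counts, where 31.0 were expected at the mean of the other 3. The adjusted p-value was 0.0667 without W20 IF replicate 1, within a range of 2.4e-89 to 0.0667 over 14 alternatives with edgeR and DESeq2. The gene did not pass the filter, and was not tested, with W20 IF replicate 4 added or with at least 10 counts required in every library.

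The other 194 rises had more than 3 counts in at least 1 W10 library. In W10 replicates 1 to 4, 172, 161, 146 and 173 of them had more than 3 counts. Their sum was 524.9, 423.1, 452.2 and 543.1 CPM in W10 and 2277, 2252 and 2326 CPM in W20 IF replicates 1 to 3. The sums of the fasted fish were close to each other and 4.70-fold above W10 on average, with means of 2285 ± 37.98 CPM (SD, n = 3) and 485.8 ± 57.4 CPM (SD, n = 4). The genes were chosen on these same libraries, so the gap and the closeness are a description. The gene with the largest share gave 21.4 to 25.4% of the sum in these fasted fish. The median log2fold change was 2.11 (median SE 0.32). In W20 AL the sum was 825.6, 799.2, 758.2 and 1288 CPM, all between the W10 and the W20 IF values and highest in replicate 4. The sum of 923.7 CPM in W20 IF replicate 4 lies within the W20 AL values.

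The 37 falls also did not overlap between the groups. The same was true, with W20 IF below W10, of 9.03% of all genes tested. The falls were chosen on these libraries, so their separation is a description. Their summed level was 497.9, 488.1, 436.2 and 499.0 CPM in W10 and 174.8, 232.7 and 240.6 CPM in W20 IF replicates 1 to 3. W20 IF replicate 1 had the lowest level for 20 of the 37 genes, replicate 2 for 12 and replicate 3 for 5. The means were 480.3 ± 29.8 CPM (SD, n = 4) and 216.0 ± 35.9 CPM (SD, n = 3), a ratio of 2.22. In W20 AL the sum was 393.2, 453.9, 484.5 and 564.0 CPM, which overlaps with W10. The sum in W20 IF replicate 4 was above all of them at 646.6 CPM, of which 1 gene gave 66.2%.

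**Figure D2:**
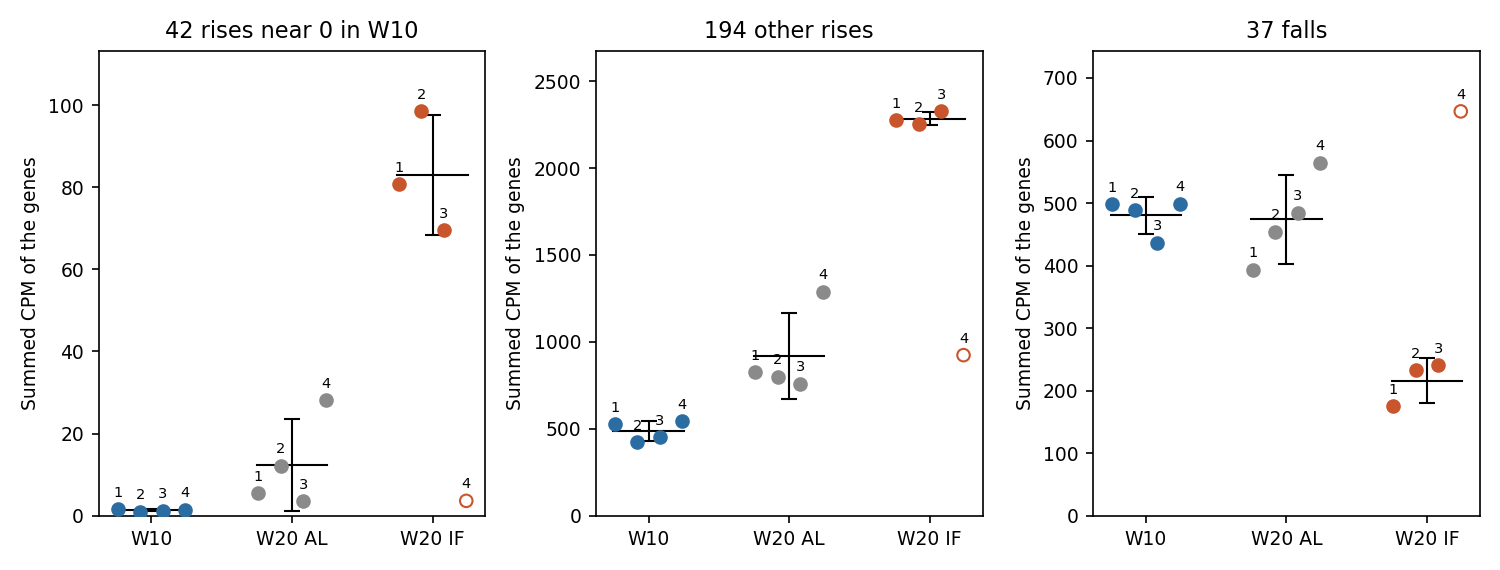
Summed CPM per library (y axis) in W10, W20 AL and W20 IF for the 42 rises near 0 in W10, the other rises and the 37 falls, with the mean and SD of each group. The open circle is W20 IF replicate 4, which is in no mean, and it lies at 3.61, 923.7 and 646.6 CPM. W20 IF replicates 1 to 3 lie together in each panel, but the genes were chosen through them.

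The largest falls concerned genes of low level. ENSNFUG00015000538 was at 1.70, 1.17, 1.82 and 0.340 CPM in W10 and at 0.185, 0.0775 and 0.122 CPM in W20 IF replicates 1 to 3, from 5, 2 and 3 counts. W10 replicate 4 was well below the other W10 fish but still above all 3 fasted fish. With 130 counts in W10 and 10 in W20 IF, the rate ratio was 9.62 (95% exact interval 5.06 to 20.5, counting error only). The log2fold change was -3.23 (SE 0.65, adjusted p = 0.0306, edgeR's quasi-likelihood test). This call was lost without any one of W20 IF replicates 1, 2 and 3 and with replicate 4 added, with adjusted p-values of 0.0715, 0.103, 0.103 and 0.0949, in a range of 3.95e-05 to 0.103 over 12 alternatives with edgeR and DESeq2. The gene did not pass the filter without W10 replicate 1, 2 or 3 or with at least 10 counts required in every library, so it was not tested there. With the 7 libraries it passed the filter only through W10. It was picked for its fall, so its p-values and interval are no support for a difference. In W20 IF replicate 4 there were 3 counts, equal to 2.16 CPM, where 0.178 counts were expected at the mean of the other fasted fish and 1.74 at the W10 mean. W20 AL was at 0.383, 0.640, 0.937 and 1.19 CPM.

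ENSNFUG00015003109 was at 0.964, 0.532, 0.787 and 1.17 CPM in W10 and at 0.111, 0.155 and 0.203 CPM in W20 IF replicates 1 to 3, from 3, 4 and 5 counts. All fasted fish were below all W10 fish. The rate ratio of 90 to 12 counts was 5.55 (95% exact interval 3.02 to 11.1, counting error only), and the log2fold change was -2.43 (SE 0.41, adjusted p = 0.0126, edgeR's quasi-likelihood test). The adjusted p was 0.0615 with the replicate number as a block, in a range of 8.29e-06 to 0.0615 over 15 alternatives with edgeR and DESeq2. This gene also passed the filter only through W10. It was picked for its fall, so its p-values and interval are no support for a difference. W20 AL was at 0.536, 0.896, 1.49 and 0.819 CPM, in the range of W10 apart from a higher replicate 3. In W20 IF replicate 4 it had 0 counts, which at that depth allows up to 2.16 CPM and so does not separate the groups.

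To separate genes raised in all fasted fish from genes raised in 1 fish, each gene was compared library by library on CPM plus 0.5. A gene counted as raised in all when the lowest of W20 IF replicates 1 to 3 was at least 2-fold above the highest W10 library. This held for 114 genes (0.635% of those tested), of which 86 were DEGs, and 2 genes (0.0111%) were lowered in all 3 fish in the same sense. The levels of the 2 lowered genes averaged 17.4, 12.1, 12.6 and 11.7 CPM in W10 and 4.26, 3.99 and 4.93 CPM in W20 IF replicates 1 to 3. W20 IF replicate 4 was also low at 3.97 CPM, at its shallow depth. W20 AL was at 7.44, 9.20, 9.73 and 8.62 CPM, likewise below every W10 average. The values chose these genes, so no test is given for the classes.

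Among the 236 rises, 86 (36.4%) passed the 2-fold limit in all 3 fish, 43 (18.2%) in 2 fish, 47 (19.9%) in 1 fish and 60 (25.4%) in none. Over all genes tested the same shares were 0.635%, 0.367%, 0.657% and 98.3%. The rises past the limit numbered 143 in W20 IF replicate 1, 123 in replicate 2 and 125 in replicate 3. A single fish past the limit was replicate 1 for 24 rises, replicate 2 for 19 and replicate 3 for 4. For the rises, the highest fasted fish exceeded the lowest by a median of 1.43-fold, and by more than 2-fold for 24 genes (10.2%). This spread was wider than over all genes tested, with a median of 1.27-fold and 4.21% above 2-fold. The share above 2-fold was 2.38% for the 42 rises near 0 in W10 and 11.9% for the other rises. The rises also lay at a lower level, with a median of 2.16 CPM in W20 IF against 7.14 CPM over all genes tested. The part of this level in the spread was not tested. All 273 DEGs kept W20 IF replicates 1 to 3 apart from all W10 libraries, which was also true of 16.9% of all genes tested, 7.92% with W20 IF above W10 and 9.03% with W20 IF below.

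The 28 genes raised in all 3 fish that were not DEGs were well expressed but scattered widely. Their median level was 20.4 CPM in W20 IF, and the highest library exceeded the lowest by a median of 2.15-fold in W20 IF and 7.29-fold in W10. Their adjusted p-values ranged from 0.052 to 0.259 with edgeR's quasi-likelihood test.

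Among the genes that passed the filter, those raised in 1 fasted fish alone were fewer than those raised in all 3 at the 2-fold limit. The classes follow unlike rules, since a gene raised in 1 fish also had to stand 2-fold above the other fasted fish. Measured against W10 only, 118 genes (0.657%) passed the limit in exactly 1 fasted fish and 114 (0.635%) in all 3. Genes near 0 outside 1 fasted fish could not pass the filter on low counts, so these numbers are not on equal terms either. With at least 10 counts required in every library, the classes held 23 genes raised in 1 fish alone and 24 raised in all 3. Exactly 1 of W20 IF replicates 1 to 3 was at least 2-fold above all 6 other libraries for 35 genes (0.195% of those tested), namely 15 (0.0835%) in replicate 1, 14 (0.0779%) in replicate 2 and 6 (0.0334%) in replicate 3. The number was 89 without W20 IF replicate 3. At a limit of 1.5-fold it was 207, above the 194 genes then raised in all 3 fish, and at 3-fold it was 8, below 47. With W20 IF replicate 4 added it was 292, of which that shallow library gave 270 and replicates 1, 2 and 3 gave 8, 9 and 5. The same count with the 7 libraries was 78 in W10, of which W10 replicate 1 gave 77 (0.429%) and replicate 3 gave 1 (0.00557%). The 35 genes exceeded the next library by a median of 2.24-fold in replicate 1, 2.42-fold in replicate 2 and 2.37-fold in replicate 3, at median levels of 12.6, 11.7 and 9.71 CPM. Only 2 of the genes of replicate 1 and 1 of those of replicate 2 were DEGs, and none of replicate 3. In W20 AL, 1 gene of replicate 2 reached a level as high as in that fish, and 0 genes of replicates 1 and 3 did. The shallow W20 IF replicate 4 was as high for 2 genes of replicate 1, 2 of replicate 2 and 0 of replicate 3.

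Genes lowered in 1 fish alone were also concentrated in a few libraries. W10 replicate 1 was at least 2-fold below all 6 others for 87 genes (0.484% of those tested), W20 IF replicate 1 for 29 (0.161%) and W10 replicate 3 for 28 (0.156%). There were 5 such genes (0.0278%) in W20 IF replicate 3, 2 (0.0111%) in W20 IF replicate 2, 1 (0.00557%) in W10 replicate 2 and 0 in W10 replicate 4. The 28 genes of W10 replicate 3 had a median of 0.166 CPM there and 9.43 CPM in the other fish, and 18 of them were at least 10-fold below the lowest of the others. In W20 IF replicate 1 the 29 genes had a median of 2.63 CPM against 11.5 CPM. The bar plot of single fish shows W10 replicate 1 as the library with the most genes in each direction.

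**Figure D3:**
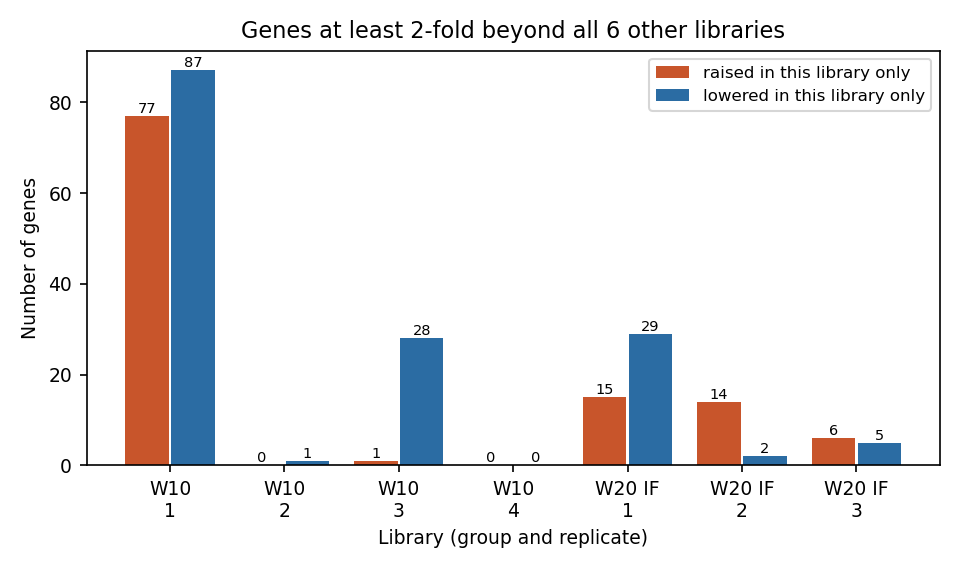
Number of genes (y axis) that were at least 2-fold above or below all 6 other libraries in 1 library alone, for each of the 7 libraries (x axis), on CPM plus 0.5. W10 replicate 1 has 77 raised and 87 lowered genes, whereas W20 IF replicates 1, 2 and 3 have 15, 14 and 6 raised genes.

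ENSNFUG00015022953 showed the widest gap of the genes raised in 1 fasted fish. It was at 214.7, 1.28 and 2.43 CPM in W20 IF replicates 1 to 3 and at 3.05, 8.58, 17.5 and 6.54 CPM in W10. Replicate 1, with 5793 counts, was 12.0-fold above the next library, and the other 2 fasted fish were below every W10 fish. W20 AL was at 7.50, 0.640, 4.09 and 2.46 CPM and W20 IF replicate 4 at 2.16 CPM from 3 counts. The group means of 72.8 ± 122.9 CPM (SD, n = 3) and 8.91 ± 6.15 CPM (SD, n = 4) gave a log2fold change of 3.04 (SE 1.77), and the gene was not called (adjusted p = 0.457, edgeR's quasi-likelihood test). Without W20 IF replicate 1 the log2fold change was -2.26, with an adjusted p of 0.307 in a range of 0.307 to 0.959 over 15 alternatives.

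**Figure D4:**
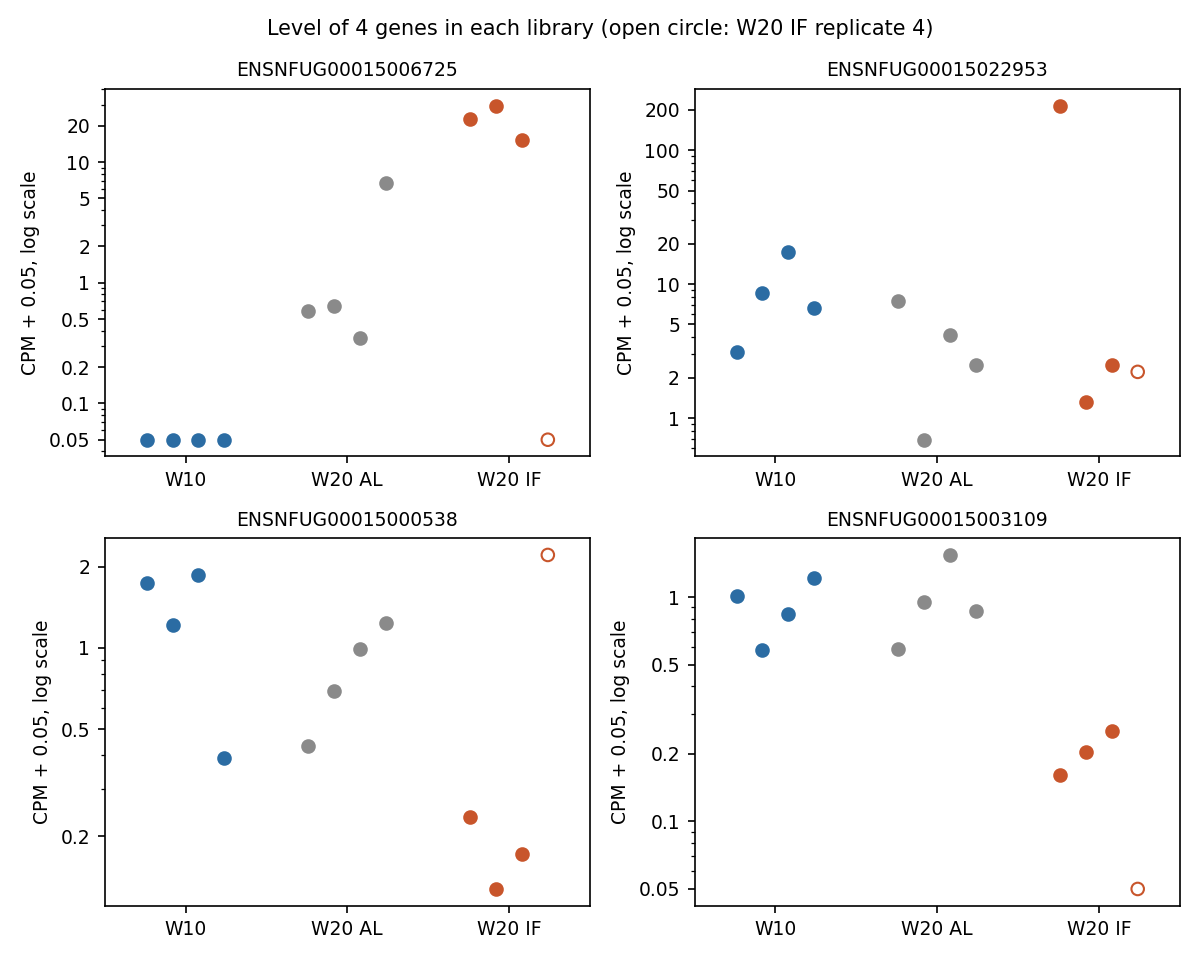
CPM plus 0.05 on a log scale (y axis) of 4 genes in the 12 libraries, by group (x axis), 1 point per library, with W20 IF replicate 4 as an open circle. ENSNFUG00015006725 is high in W20 IF replicates 1 to 3 (15.1 to 29.3 CPM), whereas ENSNFUG00015022953 is high in replicate 1 alone (214.7 CPM).

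W20 IF replicate 4 took an intermediate place for the summed counts of the rises, but single genes differed. It held 1285 counts on the 236 rising genes (95% exact Poisson interval 1216 to 1357, counting error only), where 3281 were expected at the mean of the other 3 fasted fish and 675.0 at the W10 mean. A single gene gave 733.1 of the 3281 expected counts and 115 of those found. As picked examples of either kind, 1 gene had 0 counts where 105.0 were expected at the W20 IF mean and 0.617 at the W10 mean. Another had 63 counts where 67.1 and 32.5 were expected. For 46 rises at least 10 counts were expected, and 20 of them (43.5%) lay nearer to the mean of W20 IF replicates 1 to 3 and 26 nearer to the W10 mean. Of all tested genes with as many expected counts, 50.8% lay nearer to the former. The group means of most tested genes are close to each other, so this share is no baseline for the rises. The median log2 difference from W10 for these 46 genes was 0.90 in replicate 4 and 2.101 in the other 3 fish. In replicate 4, 33 of them lay above and 12 below the W10 mean. Of all 9257 tested genes with as many expected counts, 4023 lay above and 5233 below the W10 mean there. The 46 rises were chosen as low in these same W10 libraries, which favours a place above the W10 mean. Nothing is read from these counts. On the 37 falling genes replicate 4 held 896 counts (838 to 957), above the 299.4 and the 665.6 expected at the W20 IF and W10 means. A single gene gave 593 of these counts, and the other 36 falls held 303, between the 212.2 and the 485.8 expected at the W20 IF and W10 means. With at least 10 expected counts, 8 of 16 falls lay nearer to each group. Of the 114 genes raised in all 3 fish, 33 were also at least 2-fold above the highest W10 library in replicate 4. At least 10 counts were expected there for 47 of the 114, of which 22 passed this limit and 14 were under the highest W10 library. The depth was too low to judge the rest. Among all tested genes, replicate 4 alone was at least 2-fold above the 7 libraries of the comparison for 270.

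**Figure D5:**
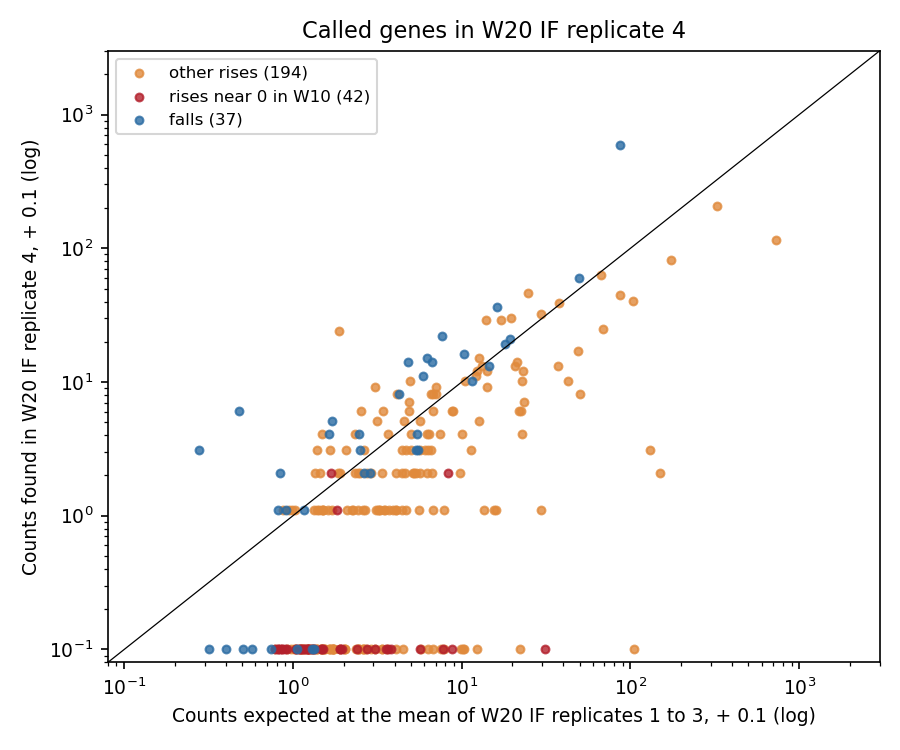
Counts found in W20 IF replicate 4 (y axis) against counts expected from the mean of W20 IF replicates 1 to 3 at its depth (x axis), with 0.1 added and on log scales, 1 point per DEG. The rises near 0 in W10 lie far under the line of equality, with 5 counts found in all where 114.9 were expected.

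The W20 AL libraries share their W10 baseline with the comparison, so their values are given only side by side. In a model of 11 libraries the median log2fold change of the rises was 2.42 in W20 IF and 1.07 in W20 AL, each against W10, and of the falls it was -1.24 and -0.27. The mean of W20 AL lay between those of W10 and W20 IF for 212 of the 236 rises, beyond W20 IF for 4 and on the other side of W10 for 20. The same numbers were 24, 2 and 11 for the 37 falls. Over all tested genes the mean of W20 AL lay in between for 28.8% of those with a higher and 28.1% of those with a lower mean in W20 IF than in W10. The DEGs were chosen for a wide gap between W10 and W20 IF, so these counts are a description. All W20 AL libraries were below W20 IF replicates 1 to 3 for 179 rises, compared with 12.6% of all genes tested, and above them for 26 falls, compared with 13.3%. The same W20 IF libraries chose the DEGs, so nothing is read from these counts. W20 AL replicate 4 was the highest of its group for 154 rises (65.3%), compared with 23.6% of all genes tested. The cause of the differences between this fish and the rest of its group was not tested.

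Across the 7 leave-one-out fits, 137 of the 273 DEGs (50.2%) were called in every one. They comprised 128 rises and 9 falls. Among them were 37 of the 42 genes near 0 in W10, 91 of the other rises and 77 of the 86 DEGs raised in all 3 fish. The same libraries chose these genes, so the counts are a description. The genes near 0 in W10 also passed the filter only through W20 IF.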

How the data were processed

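The authors extracted RNA from intestines (whole in the labels, small in the methods), selected poly(A) RNA for strand-specific libraries, read these in paired ends of 75 bases, trimmed with Trimmomatic, mapped with STAR to Nfu_20140520 (Ensembl release 108 annotation) and deposited whole-number counts per gene from featureCounts, without normalization and with 1 column per library. Program versions and the treatment of reads shared by near-identical genes are not given in the sources used here, so counts of such genes are uncertain.

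The 7 libraries were analysed with edgeR 4.0.16 (limma 3.58.1, R 4.3.3) by TMM scaling, filterByExpr (minimum count 10, minimum total 15), which kept 17965 of 25475 genes, and the robust quasi-likelihood test with group as the only term. Adjustment followed Benjamini and Hochberg over all tested genes, and DEGs needed an adjusted p under 0.05 and an absolute log2fold change above 1. The SE was obtained as log2fold change over the square root of F. CPM are TMM-scaled, classes used CPM plus 0.5, and distances were Euclidean on log2 CPM (prior count 2). W20 IF replicate 4 was left out for its depth. The script was tested on simulated data. Alternatives were each library left out, other sets of libraries, scalings, filters and class limits, DESeq2 1.42.0, the likelihood ratio test of edgeR, dropping the fold limit, and a block for the replicate number. Leaving out libraries for the classes, and adding W20 IF replicate 4 to them, were chosen after seeing the data. Python 3.11.15 and matplotlib 3.10.9 drew the figures.

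The libraries, classes and lists were chosen with earlier results of these data known. The intended gene lists and markers could not be applied, because 0 identifiers matched a gene symbol. By the rule for that case, 4 identifiers are named, namely the DEG with the largest rise among genes raised in all 3 fish, the gene with the widest gap among those raised in 1 fish, and the 2 DEGs with the largest falls and no overlap between groups. In the 9 pairs of libraries of 1 group none had identical values, and chi-square per degree of freedom was at least 10.4, so all were counted as separate samples. Libraries with the same replicate number did not deviate together.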

Additional observations from a re-analysis of the deposited data

Results flagged for a closer look

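In each group of 4 libraries, 32 sets of values were checked for 1 library far from the other 3 (Dixon's test at the 95% level, critical value 0.829), and 10 passed. Chance passes about 1 in 20, but this gives no measure here. W20 IF replicate 4 was left out for its count total, ENSNFUG00015022953 was chosen for its gap in 1 fish, and the DEGs were chosen through W20 IF replicates 1 to 3.

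W20 IF replicate 4 stood apart in 6 of them. It held 1512262 counts, against 24937470 to 25774912 in the other 3 fasted fish, and 17059 detected genes, against 22563 to 22701. Its summed level of the rises was 927.302 CPM, against 2350 to 2396 CPM, and without the genes near 0 in W10 it was 923.694 CPM, against 2252 to 2326 CPM. Its sum of the falls was 646.586 CPM, against 174.8 to 240.6 CPM. ENSNFUG00015000538 was at 2.16491 CPM there, from 3 counts, against 0.0775 to 0.185 CPM. Its depth moves with these values, and the part of depth in them was not tested.

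W20 AL replicate 4 stood above the other 3 W20 AL fish. Its sum of the rises was 1315.71 CPM, against 761.8 to 831.1 CPM, and without the genes near 0 in W10 it was 1287.66 CPM, against 758.2 to 825.6 CPM. ENSNFUG00015006725 was at 6.63488 CPM, against 0.298 to 0.598 CPM.

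W20 IF replicate 1 stood above the other fasted fish for ENSNFUG00015022953, at 214.684 CPM, against 1.28 to 2.43 CPM in the other 3, replicate 4 included.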

How the results depend on the processing

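The number of DEGs was 273 and stayed within 1.5 times of that under 11 alternatives. It was 413 with DESeq2, 422 with the likelihood ratio test, 542 without a limit on the fold change, 171 with W20 IF replicate 4 added, 109 with at least 10 counts required in every library, and 167 to 297 with 1 library left out, the lowest without W10 replicate 2. The share higher in W20 IF was 86.4%, and it was 77.1% with the stricter filter, which removes genes near 0 in W10, and 61.1% without the limit. Genes raised in all 3 fasted fish numbered 114, and 194 at 1.5-fold, 47 at 3-fold, 51 with CPM plus 2, 24 with the stricter filter, 33 with W20 IF replicate 4 included, and 114 to 159 with 1 library left out. Genes raised in 1 fasted fish numbered 35, and 207, 8, 17 and 23 under the first 4 of these, 292 with W20 IF replicate 4 added, of which it gave 270, and 35 to 89 with 1 library left out, the highest without W20 IF replicate 3. Without W10 replicate 1, genes raised in 1 W10 fish fell from 78 to 7.

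With the replicate number as a block the number of DEGs was 198, of which 162 were among the 273. Same-numbered libraries correlated at 0.085, -0.024 and -0.103 in their deviations, and not every fasted fish correlated best with its own number, so the samples share only a number. With this block the log2fold change of ENSNFUG00015022953 was -0.608, and it was -2.26 to 3.63 with 1 library left out, the lowest without W20 IF replicate 1. The cause of these changes was not tested.

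Depth limits W20 IF replicate 4, in which a count of 0 allows 2.16 CPM, so falls of low genes could not be seen there. The 3 fasted fish and 4 young fish give wide errors for single genes.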
